A study of Mus musculus with 24 samples.

Results

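Long noncoding RNAs (lncRNAs) are transcripts that act, as far as they act, without being translated. The 8 examined here, Malat1, Neat1, Gas5, Snhg1, Snhg12, Meg3, Dleu2 and Kcnq1ot1, were taken by gene symbol from the 21671 genes of the files, and all 8 had a row in each of the 24 libraries. Their levels were compared between splenic B and non-B cells of Trp53+/+ and Trp53-/- mice, either unstressed (mock) or exposed to ionizing radiation (IR). The mice were of the C57/Bl6 strain and 8 weeks old, and irradiated animals received 7 Gy to the whole body 4 h before the spleens were collected. Trp53-/- mice lack the p53 gene in all their cells, so that the genotype differs in every cell type and not in lymphocytes alone. B cells were the fraction retained by beads against B220, a B cell form of CD45, and non-B cells were what passed through the column after lysis of red blood cells. Each Trp53+/+ group held 4 libraries and each Trp53-/- group 2, made from RNA from which ribosomal RNA had been removed and which was not selected for poly(A) tails.

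Malat1, which gathers in nuclear speckles, and Neat1, the scaffold of paraspeckles, are nuclear RNAs made from neighbouring genes. Gas5, Snhg1 and Snhg12 are hosts of small nucleolar RNAs (snoRNAs), which sit in their introns and guide the modification of ribosomal RNA, while the spliced host RNA is short-lived and is degraded when it is translated. Dleu2 hosts the microRNAs miR-15a and miR-16, which restrain Bcl2 and the cell cycle, and its locus is deleted in many B cell leukemias. Kcnq1ot1 and Meg3 are imprinted RNAs, the former silencing its neighbours in cis and the latter made mostly in brain, placenta and endocrine tissue. In the mm9 genome (GENCODE M1 annotation) Malat1 lies at chr19:5795690-5802671 and Neat1 at chr19:5824708-5845478, both on the minus strand. Gas5 is at chr1:162964553-162968670, Snhg1 at chr19:8797986-8800932 and Snhg12 at chr4:131864593-131866939, all on the plus strand. Dleu2 spans 62.8 kb at chr14:62238318-62301162 on the minus strand and Meg3 30.7 kb at chr12:110779211-110809936 on the plus strand. Kcnq1ot1 was matched by name.

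Sequences show what 2 of these families share. Host genes of snoRNAs are known for transcripts that start in a tract of pyrimidines, and the promoters of the 3 host genes are printed with the first 50 transcribed bases in capitals, 5′ to 3′, after 250 bases upstream (RefSeq, GRCm38.p6). They lie at chr1:161034916-161035215 (plus strand, the downstream of 2 annotated starts of Gas5), chr19:8723237-8723536 (plus strand, Snhg1) and chr4:132308428-132308727 (plus strand, Snhg12).
Gas5: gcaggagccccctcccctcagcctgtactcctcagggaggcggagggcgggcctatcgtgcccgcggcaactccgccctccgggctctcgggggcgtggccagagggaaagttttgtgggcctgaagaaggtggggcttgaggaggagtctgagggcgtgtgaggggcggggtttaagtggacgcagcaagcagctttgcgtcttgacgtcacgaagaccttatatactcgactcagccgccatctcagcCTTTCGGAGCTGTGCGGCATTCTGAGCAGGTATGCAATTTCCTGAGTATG
Snhg1: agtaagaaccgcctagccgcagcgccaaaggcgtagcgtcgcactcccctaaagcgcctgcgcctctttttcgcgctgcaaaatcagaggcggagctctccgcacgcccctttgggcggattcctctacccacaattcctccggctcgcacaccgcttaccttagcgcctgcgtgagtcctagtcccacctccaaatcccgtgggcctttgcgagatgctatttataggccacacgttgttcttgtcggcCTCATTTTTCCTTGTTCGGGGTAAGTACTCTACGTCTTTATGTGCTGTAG
Snhg12: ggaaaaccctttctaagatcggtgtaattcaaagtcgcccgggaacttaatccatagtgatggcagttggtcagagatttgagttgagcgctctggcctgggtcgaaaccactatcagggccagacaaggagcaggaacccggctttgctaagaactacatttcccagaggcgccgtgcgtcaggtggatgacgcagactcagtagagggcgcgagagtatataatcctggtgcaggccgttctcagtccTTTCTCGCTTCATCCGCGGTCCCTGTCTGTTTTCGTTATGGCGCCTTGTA
The longest run of C and T that began within 5 bases of the annotated start was 9 bases in Snhg1, 9 bases in Snhg12 and 6 bases at the start of Gas5 shown. At the other annotated start of Gas5 it was 3 bases, which 62.2% of all promoters reached, and neither of the motifs named next was found there. A run of 9 or more was found in 3.95% of the 32851 mouse promoters of the same length, and a run of 6 or more in 13.7%. The sequence TATATA occurred in the Gas5 and Snhg12 promoters and in 5.67% of all promoters, and TGACGTCA, the element bound by CREB and ATF factors, in the Gas5 promoter and in 1.79%, both strands being read. A promoter of Meg3, which is no snoRNA host, held both motifs too. None of the 9 promoter sequences found for 7 of the 8 RNAs held the 10-base p53 element, which 8.36% of all promoters held on either strand. The promoter of Neat1 was not read.

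In the introns of Dleu2 lie the hairpins of Mir15a and Mir16-1, whose main mature products are shown with bases 2 to 8, the seed that pairs with targets, in capitals. They are on the minus strand at chr14:61632075-61632096 and chr14:61631936-61631957 (GRCm38.p6).
mmu-miR-15a-5p: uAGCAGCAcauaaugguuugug
mmu-miR-16-5p: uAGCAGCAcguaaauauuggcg
Both carry the seed AGCAGCA, so that they form 1 seed family.

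Values are RPKM, reads per kilobase of exon and per M (mega) exonic reads. Estimated depth ranged from 4.74 to 10.94 M reads per library, with 4.74 to 7.66 M reads in the 4 irradiated Trp53+/+ B libraries. In the Trp53-/- libraries Trp53 stood at 21.6 to 41.8 RPKM against 35.0 to 65.8 in Trp53+/+ libraries, so that its row was not emptied by the deletion. Cdkn1a, the p53-induced cell cycle inhibitor, was at 69.6 to 97.8 RPKM in the 8 irradiated Trp53+/+ libraries and at most 2.63 RPKM in the irradiated Trp53-/- ones, and 12 of 12 canonical p53 targets rose in irradiated Trp53+/+ B cells and none in Trp53-/- B cells. Of all genes, 12.5% rose in the former cells and 13.1% in the latter. The summed RPKM of 10 B cell markers was 1130 to 1310 in unstressed Trp53+/+ B libraries and 367 to 593 in the matching non-B libraries, so that the non-B fraction still held B cell RNA. T cell markers summed to 76 to 91 RPKM in these B and 540 to 771 RPKM in these non-B libraries. Macrophage, monocyte and dendritic cell markers summed to 424 to 565 and 471 to 538 RPKM, so that this list did not separate the fractions. In 6 of the 8 irradiated Trp53+/+ libraries, 15.7% to 51.3% of 1412 olfactory and vomeronasal receptor genes, which blood cells do not use, had an RPKM above 0, against 5.2% to 9.1% in all unstressed libraries. In the other 2 irradiated Trp53+/+ libraries this share was 6.8% and 8.4%. It was 6.6% and 13% in the irradiated Trp53-/- B libraries and 8.4% and 8.1% in the irradiated Trp53-/- non-B libraries. In bulk RNA, fewer cells of a type and less RNA per cell cannot be told apart.

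In unstressed Trp53+/+ B cells, mean levels per length ran from Malat1 (182 ± 21.9 RPKM, SD, n = 4) through Neat1 (86.1 ± 6.56), Gas5 (67.5 ± 4.29), Snhg12 (34.5 ± 2.99), Dleu2 (29.0 ± 1.15), Snhg1 (26.6 ± 2.11) and Kcnq1ot1 (21.6 ± 0.294) down to Meg3 (0.0582 ± 0.0141). The ranges of Dleu2 and Snhg1 overlapped, and those of all other neighbours in this order did not. Malat1 was among the 6 highest genes in every library. A gene was called where limma gave an adjusted p below 0.05 and a log2 fold change beyond 0.58 in either direction. Between unstressed Trp53+/+ B and non-B cells none of the 7 RNAs tested was called, in a comparison where 24.8% of all genes were, and between the Trp53-/- fractions none was either, where 18.1% of genes were. The differences with the lowest adjusted p were Neat1, at a log2 difference of -0.38 ± 0.12 (SE) in B against non-B cells, and Kcnq1ot1, at 0.32 ± 0.10 (limma, adjusted p = 0.014 for each). Between the genotypes no unstressed level of the 7 RNAs was called (background 0.0506% of genes for B and 0.0428% for non-B cells), and the log2 differences, Trp53-/- minus Trp53+/+, ran from -0.09 to 0.15 in B and from -0.02 to 0.28 in non-B cells. Meg3 never reached 1 RPKM and was outside these tests.

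**Figure D1:**
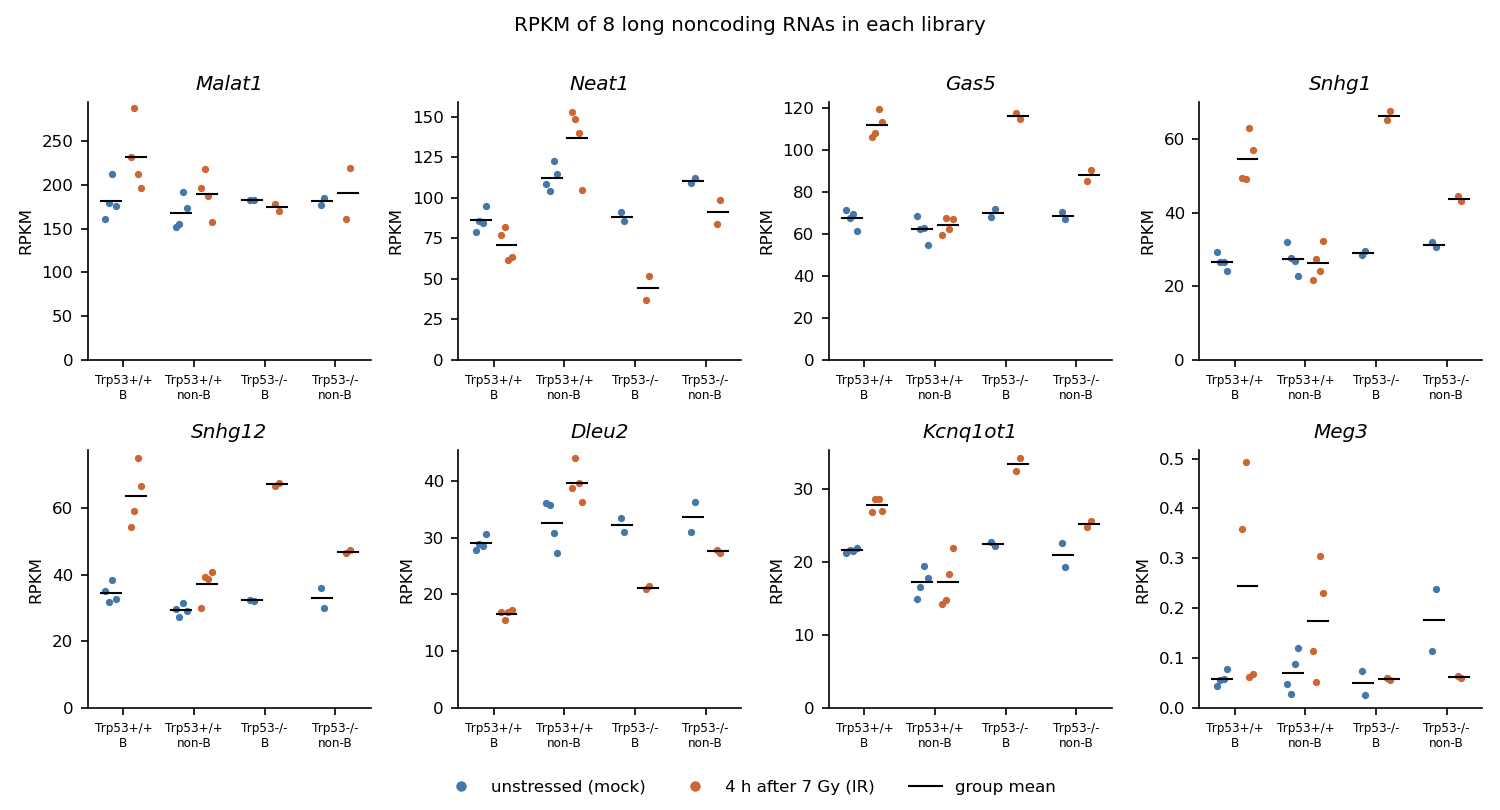
RPKM of the 8 lncRNAs in each of the 24 libraries, by cell type and genotype, each panel with its own linear axis from 0. Points are libraries (blue, mock; orange, IR) and bars are group means. In B cells of both genotypes the irradiated points of Gas5, Snhg1, Snhg12 and Kcnq1ot1 lie above all mock points and those of Dleu2 below them.

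Upon IR, the 3 snoRNA hosts rose and Dleu2 fell in Trp53+/+ B cells. These 4 of the 7 RNAs tested were called (3 higher, 1 lower), where 24.7% of 13821 genes were called (12.5% higher and 12.2% lower). The median log2 fold change was 0.36 over the 7 and 0.011 over all genes.

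Snhg1 stood at 29.2, 26.6, 26.6 and 24.1 RPKM in the 4 mock B libraries and at 49.5, 49.1, 63.2 and 57.1 RPKM after IR. All irradiated libraries were above all mock libraries, a log2 fold change of 1.02 ± 0.08 (limma, adjusted p = 9.1e-07) or 2.03-fold on the scale of RPKM + 0.5. Snhg12 went from 35.25, 31.7, 38.4 and 32.6 RPKM to 54.3, 59.2, 75.1 and 66.7 RPKM, again without overlap. Its log2 fold change was 0.87 ± 0.09 (limma, adjusted p = 7.8e-06). Gas5, the most abundant of the 3, measured 71.6, 67.5, 69.3 and 61.5 RPKM in mock and 106, 108, 119.6 and 113 RPKM in irradiated libraries. The groups were far apart relative to their spread, with a log2 fold change of 0.73 ± 0.06 (limma, adjusted p = 1.2e-06).

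In irradiated Trp53+/+ B cells, the level of the 3 hosts was lowest in the 2 libraries where silent receptor genes were most often above 0, replicates 1 and 2. Without the libraries in which over 10% of these genes were above 0, the log2 fold changes were 1.23 for Snhg1, 1.11 for Snhg12 and 0.82 for Gas5, each past both thresholds. This setting left 1 irradiated Trp53+/+ B library, replicate 3, which was assumed to vary like the other groups. Sums of markers listed for other cells moved with IR in the same libraries. The summed erythroid markers went from 71.0 to 151 RPKM down to 37.1 to 48.7 RPKM and the endothelial or stromal markers from 72.0 to 77.4 RPKM down to 45.4 to 59.1 RPKM (exact permutation p = 0.0286 for each, two-sided). The other 6 marker lists did not pass this test (exact permutation p = 0.0857 to 0.943), and the part of these shifts in the levels of the lncRNAs was not tested. Of the 7 endothelial or stromal markers, Col3a1, Pdgfrb and Dcn were under 1 RPKM in all these mock and irradiated libraries. Col1a1 was so in all mock and Kdr in all irradiated ones, so that this sum rests on the remaining genes.

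The same 3 RNAs rose in Trp53-/- B cells. Of the 7 tested, 5 were called there (3 higher, 2 lower), against 24.3% of all genes (13.1% higher, 11.2% lower). Snhg1 went from 28.4 and 29.6 RPKM to 65.2 and 67.8 RPKM, Snhg12 from 32.4 and 32.2 RPKM to 66.8 and 67.7 RPKM, and Gas5 from 67.9 and 72.1 RPKM to 118 and 115 RPKM. Their log2 fold changes were 1.18 ± 0.12, 1.04 ± 0.13 and 0.73 ± 0.09 (limma, adjusted p = 1.2e-05, 5.9e-05 and 4.3e-05).

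The difference in response between the genotypes, Trp53+/+ minus Trp53-/-, was -0.16 for Snhg1 (95% interval -0.48 to 0.15), -0.17 for Snhg12 (-0.52 to 0.17) and near 0 for Gas5 (-0.23 to 0.23). None of these differences passed the test (limma, adjusted p = 0.48, 0.50 and 0.99). The difference for Cdkn1a in the same fit was 5.81.

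No such rise was called in Trp53+/+ non-B cells, nor was any of the 7 RNAs (background 9.85% of 14018 genes). Snhg1 was at 31.9, 27.6, 26.9 and 22.9 RPKM in mock and 21.7, 27.4, 24.05 and 32.2 RPKM in irradiated libraries, which overlapped throughout. Gas5 was at 68.6, 62.4, 63.02 and 54.7 RPKM and then at 59.6, 67.8, 62.55 and 67.1 RPKM. Snhg12 showed a log2 fold change of 0.33 ± 0.10 (limma, adjusted p = 0.039), which was under the fold threshold. The responses of B and non-B cells differed for Snhg1 by 1.08 ± 0.15 and for Gas5 by 0.68 ± 0.10 on the log2 scale (limma, adjusted p = 3.2e-05 and 3.0e-05). With Dleu2, these were the 3 of 7 RNAs whose response was called as different between the cell types, against 19.2% of 14598 genes (10.3% higher in B cells and 8.91% lower). For Snhg12 the difference was 0.54 ± 0.14 (limma, adjusted p = 0.0061), short of the fold threshold.

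Trp53-/- non-B cells gave differences that did not pass the test. Snhg1 was at 32.1 and 30.7 RPKM in mock and 44.7 and 43.1 RPKM after IR, Gas5 went from 70.3 and 66.9 to 85.3 and 90.7 RPKM, and Snhg12 from 36.1 and 30.04 to 46.5 and 47.5 RPKM. The irradiated libraries were above the mock libraries for all 3, with log2 fold changes of 0.48 ± 0.17, 0.36 ± 0.11 and 0.51 ± 0.14 (limma, adjusted p = 0.21, 0.15 and 0.12). None of the 7 RNAs was called, where 0.442% of genes were.

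**Figure D2:**
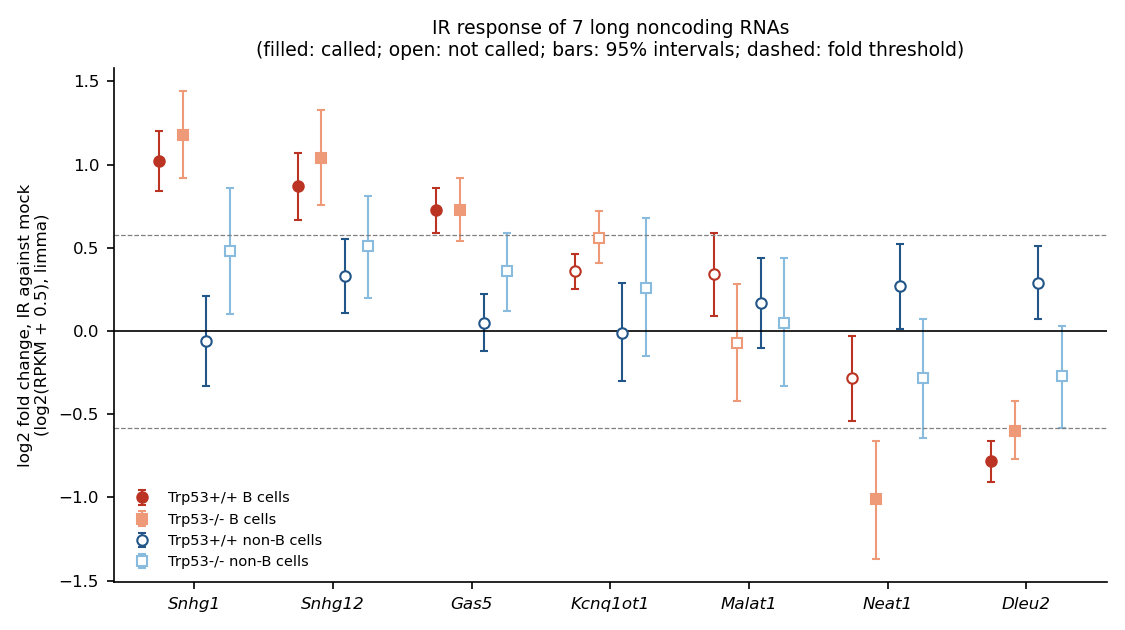
Log2 fold change of IR against mock for 7 lncRNAs in the 4 combinations of genotype and cell type, on the log2(RPKM + 0.5) scale. Symbols are limma estimates with 95% intervals, filled where called, and dashed lines mark the fold threshold of 0.58. The snoRNA hosts lie above it in B cells of both genotypes, and no symbol of non-B cells is filled.

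Across all 24 libraries the hosts followed each other, with a Pearson r of log2 levels of 0.98 for Gas5 and Snhg1, 0.95 for Gas5 and Snhg12 and 0.92 for Snhg1 and Snhg12. These values describe libraries that share treatment groups and carry no test. Among 13063 genes, the 3 most alike to Gas5 were Ftsj3, a ribosomal RNA methyltransferase, Snhg1 and Mettl1, a transfer RNA methyltransferase (r = 0.976 for Ftsj3 and 0.967 for Mettl1).

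Of 14 core and assembly proteins of snoRNA particles tested, 6 rose, 8 were not called and none fell in Trp53+/+ B cells, where 12.5% of all genes rose, at a median log2 fold change of 0.58. In Trp53-/- B cells 13 of the 14 rose, where 13.1% of all genes did, at a median of 1.1. Fibrillarin (Fbl), the methyltransferase of box C/D particles, had a log2 fold change of 0.86 in Trp53+/+ and 1.03 in Trp53-/- B cells, and Gar1, of box H/ACA particles, of 1.11 and 1.39. Nolc1, a nucleolar chaperone of these particles, changed by 0.99 and 1.37 (limma, all 6 values called). The median of the 14 in Trp53+/+ non-B cells was -0.39, with 1 called, Naf1, an assembly factor of H/ACA particles (log2 fold change -0.77). Of all genes, 9.85% were called there in either direction. The response of 12 of the 14 was called as higher in Trp53+/+ B than non-B cells, where 10.3% of all genes were. In Trp53-/- non-B cells the median was 0.41, with none called, where 0.442% of all genes were. The response was called as lower in Trp53+/+ than in Trp53-/- cells for 7 of the 14 in non-B cells (median difference -0.88). In B cells this held for 3 of the 14 (-0.45). In these comparisons 6.55% and 12% of all genes were called in either direction. For B cells, 6.56% of all genes had a response called as higher in Trp53+/+ cells.

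Other noncoding hosts of snoRNAs were split. Of 11 tested, 4 rose in Trp53+/+ B cells, against 12.5% of all genes (median log2 fold change 0.34). These were 1110038B12Rik at 1.04, Snhg3 at 0.88, Snhg7 at 0.66 and Snhg8 at 0.60. In Trp53-/- B cells 4 rose, against 13.1% of all genes (median 0.53). Of the 11, 1110038B12Rik fell by 0.60 on the log2 scale in Trp53+/+ non-B cells and none rose. In these cells 9.85% of all genes were called in either direction. Of 14 factors of nonsense-mediated decay, the pathway that degrades translated host RNAs, 1 rose in Trp53+/+ B cells, Upf3b (log2 fold change 1.03). None of them fell, and the list median was 0.17, where 12.5% of all genes rose. Among the neighbours of Snhg1 and Snhg12, 3 of 14 rose in Trp53+/+ B cells, against 12.5% of all genes, and 5 of 14 in Trp53-/- B cells, against 13.1%. The 3 were Wdr74, a ribosome assembly factor that starts beside Snhg1 (0.83), Chrm1, a muscarinic receptor (1.07), and Snhg3, which lies near Snhg12 (0.88).

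Reads over the snoRNAs themselves could be followed for the 3 H/ACA guides of Snhg12 and for Snord47, a C/D guide of Gas5. Snora61 was at 75.6 to 97.2 RPKM in mock and 115 to 148 RPKM in irradiated Trp53+/+ B cells, without overlap, with a log2 fold change of 0.63 (limma, adjusted p = 8e-05). Snora44, from the same host, went from 61.4 to 70.5 RPKM up to 81.6 to 92.5 RPKM, a log2 change of 0.41 that was under the fold threshold. Snora16a was at 52.1 to 68.4 RPKM in mock and 45.9 to 66.3 RPKM in irradiated libraries, and these ranges overlapped. The host Snhg12 itself had a log2 fold change of 0.87. In Trp53-/- B cells Snora61, Snora44 and Snora16a changed by 0.64 (called), 0.07 and 0.06, against 1.04 for Snhg12. In Trp53+/+ non-B cells they changed by -0.29, -0.40 and -0.57, against 0.33 for Snhg12, and none was called (background 9.85% of genes). In Trp53-/- non-B cells they changed by 0.23, 0.07 and 0.67, none called (0.442%). The genotype difference of Snora16a in non-B cells, -1.24, was called (limma, adjusted p = 0.033), where 6.55% of genes were. Snord47 was at 59.3 to 66.5 RPKM in mock and 32.3 to 119.6 RPKM in irradiated Trp53+/+ B libraries, with a log2 fold change of -0.03 (limma, adjusted p = 0.94), against 0.73 for its host Gas5. Its irradiated values lay on both sides of the mock range. Snord47 was not called in the IR response of any other group. The C/D guides Snord22 of Snhg1 and Snord99 of Snhg12 were listed at 0 in all libraries. The protocol did not select small RNA, so that a snoRNA row can hold reads of the unspliced host.

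Dleu2 fell in B cells of both genotypes. It stood at 27.9, 28.98, 28.6 and 30.6 RPKM in mock and 16.9, 15.6, 16.8 and 17.2 RPKM in irradiated Trp53+/+ B libraries. All irradiated libraries were below all mock ones, a log2 fold change of -0.78 ± 0.06 (limma, adjusted p = 3.2e-07), or 1.72-fold lower. In Trp53-/- B cells it fell from 33.5 and 31.1 RPKM to 20.9 and 21.5 RPKM, a log2 fold change of -0.60 ± 0.08 (limma, adjusted p = 0.00011). This value sat just past the fold threshold and was -0.54 without mock replicate 1 and -0.58 without irradiated replicate 1, where the call was lost.

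In non-B cells Dleu2 did not fall in Trp53+/+ mice. Its mock libraries held 36.2, 35.8, 30.8 and 27.4 RPKM and its irradiated libraries 38.8, 44.0, 39.6 and 36.4 RPKM, all irradiated values lying above all mock values. The log2 fold change of 0.29 ± 0.10 did not pass the test (limma, adjusted p = 0.063). In Trp53-/- non-B cells the values were 30.98 and 36.3 RPKM in mock and 27.9 and 27.4 RPKM after IR, with a log2 fold change of -0.27 ± 0.14 (limma, adjusted p = 0.38). The responses of Trp53+/+ B and non-B cells differed by -1.07 ± 0.11 (limma, adjusted p = 1.6e-06), and the genotype difference in non-B cells was 0.56 ± 0.17 (limma, adjusted p = 0.069). After IR, Dleu2 was 2.34-fold lower in Trp53+/+ B than non-B cells. The summed macrophage, monocyte and dendritic cell markers of the non-B fraction rose from 471 to 538 RPKM up to 542 to 733 RPKM (exact permutation p = 0.0286, two-sided, the smallest 4 against 4 libraries allow), and the erythroid markers went from 149 to 377 RPKM down to 38.9 to 117 RPKM (exact permutation p = 0.0286). The part of these shifts in the non-B values was not tested.

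Of the 4 genes inside Dleu2, 3 fell in Trp53+/+ B cells and 1 in Trp53-/- B cells, where 12.2% and 11.2% of all genes fell. Mir15a was at 12.7, 13.97, 14.04 and 28.5 RPKM in mock and 1.93, 2.48, 0 and 1.53 RPKM in irradiated Trp53+/+ B libraries. On a hairpin of 84 bases this corresponded to 9.0 to 22.8 reads in each mock library and 0 to 1.0 read in each irradiated library. The decrease was called (limma, adjusted p = 8e-05), and its size cannot be fixed with so few reads. Mir16-1, whose product shares the seed printed above, went from 4.59 to 12.3 RPKM down to 2.24 to 4.48 RPKM, which corresponded to 1.0 to 3.0 reads after IR, and was called as lower too (limma, adjusted p = 0.004). In Trp53-/- B cells Mir15a held 12.9 to 18.7 reads in mock and 3.0 to 5.0 reads in irradiated libraries and was called as lower (limma, adjusted p = 0.035), while Mir16-1 did not pass the test (adjusted p = 0.18). Mir15a in Trp53+/+ non-B cells held 7.9 to 13.8 reads per irradiated library and was not called. These libraries did not select small RNA, so that the rows report the unprocessed host transcript or hairpin and not the mature microRNAs of the seed family.

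Kcnrg and Trim13, protein-coding genes that overlap Dleu2, changed by -0.94 and -0.53 in irradiated Trp53+/+ B cells (limma, adjusted p = 7e-06 and 0.003), and only the former passed the fold threshold. Their log2 fold changes in Trp53-/- B cells were -0.48 and -0.40 (limma, adjusted p = 0.015 and 0.083), and neither was called. Both had positive log2 fold changes in Trp53+/+ non-B cells, 0.33 and 0.36, under the fold threshold. The counting named no strand option, so that reads of Dleu2 and of overlapping genes on the other strand cannot be told apart. Of 10 neighbours tested, including these genes, 5 fell in Trp53+/+ B cells, where 12.2% of all genes fell. The median log2 fold change was -0.65, against 0.011 over all genes. Mir15a, Mir16-1 and Kcnrg, which lie inside Dleu2, were among the 5, as was Arl11, a small GTPase gene farther along the locus (-0.77). None of the 10 was called in Trp53+/+ non-B cells (median -0.04), where 9.85% of all genes were called in either direction. In Trp53-/- B cells 1 fell (median -0.44), where 11.2% of all genes fell.

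**Figure D3:**
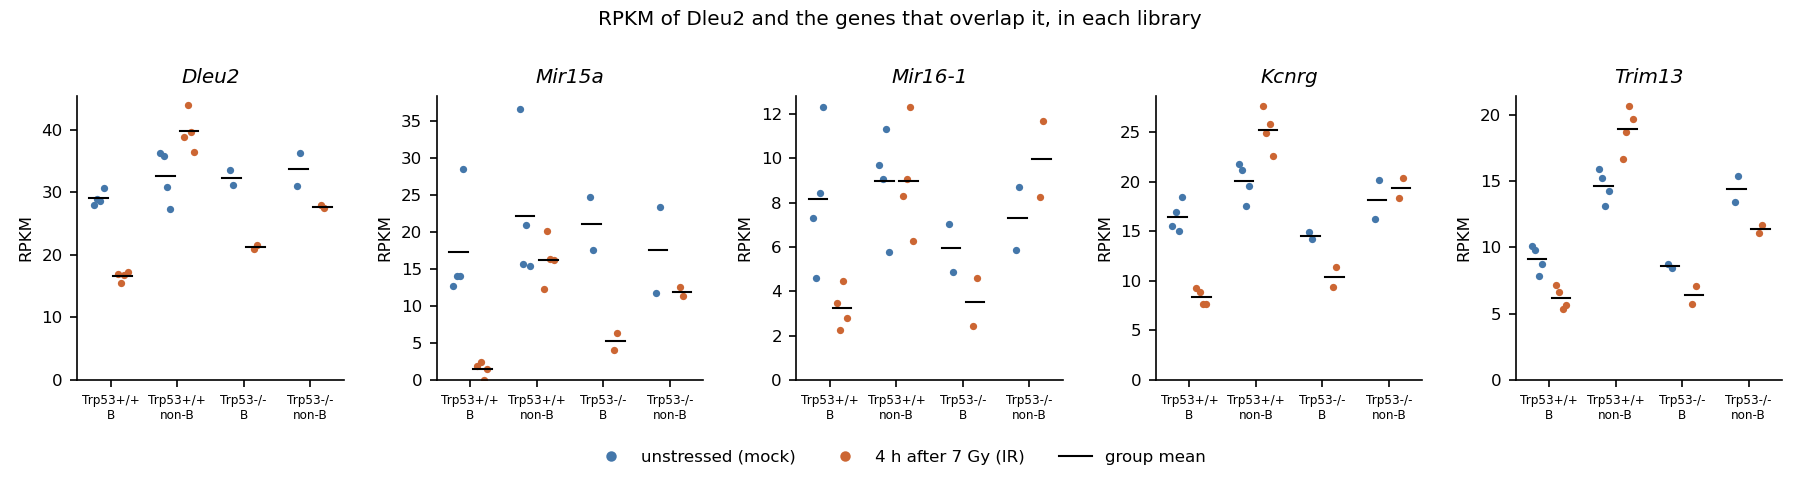
RPKM of Dleu2 and of the 4 genes that overlap it, in each of the 24 libraries, by cell type and genotype, with linear axes from 0. Points are libraries (blue, mock; orange, IR) and bars are group means. In Trp53+/+ B cells the irradiated points lie below all mock points in every panel, while in Trp53+/+ non-B cells they lie above them for Dleu2, Kcnrg and Trim13.

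The 3 genes most alike to Dleu2 over the 24 libraries were Sgk3, a kinase of the PI3K pathway, Mtmr6, a phosphoinositide phosphatase, and Il17ra, a cytokine receptor chain. All 3 fell in irradiated Trp53+/+ B cells, by 0.88, 0.72 and 0.91 on the log2 scale. The likeness is a description over libraries that share groups. These genes were picked for it, so that their fall beside that of Dleu2 is no separate result.

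Neat1 was the RNA whose response in B cells was called as different between the genotypes. In Trp53-/- B cells it went from 91.05 and 85.6 RPKM to 36.8 and 51.5 RPKM, a log2 fold change of -1.01 ± 0.16 (limma, adjusted p = 0.00039) or 2.02-fold lower. Irradiated replicate 1, with the lower Neat1, also had the lowest macrophage, monocyte and dendritic cell markers of the 4 libraries, 262 RPKM in sum against 407 and 419 RPKM in mock and 393 RPKM in irradiated replicate 2. The T cell, natural killer cell and megakaryocyte markers were lowest in the same library, and the part of this in the fall of Neat1 was not tested. In Trp53+/+ B cells it was at 79.1, 85.75, 84.8 and 94.9 RPKM in mock and 77.2, 82.3, 61.3 and 63.3 RPKM after IR, with overlapping groups and a log2 fold change of -0.28 ± 0.12 (limma, adjusted p = 0.056). The response differed by 0.73 ± 0.20 between the genotypes (95% interval 0.29 to 1.16, limma, adjusted p = 0.025), the 1 of 7 RNAs called in this comparison, where 12% of genes were called (6.56% with a higher response in Trp53+/+ cells).

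Within Trp53+/+ B cells the irradiated replicates 1 and 2 of Neat1, with 36.5% and 47.3% of silent receptor genes above 0, were higher than replicates 3 and 4, with 6.8% and 15.7%. Replicates 1 and 2 of both groups alone gave a log2 fold change of -0.05 and replicates 3 and 4 alone -0.52 (limma, adjusted p = 0.80 and 0.023). The genotype difference was 0.77 without the libraries in which over 10% of these genes were above 0, which left 1 irradiated library of each genotype, so that the spread came from the mock groups. It was 0.56 with the silent receptor level as a covariate, under the fold threshold. With 2 Trp53-/- libraries per group, it did not pass the test without mock replicate 1 (0.68, limma, adjusted p = 0.10), mock replicate 2 (0.77, 0.066) or irradiated replicate 1 (0.49, 0.15) of that genotype.

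In non-B cells, Neat1 was at 109, 104, 123 and 114.5 RPKM in mock and 153, 149, 139.8 and 105 RPKM in irradiated Trp53+/+ libraries. Replicate 4 stayed within the mock range while the other 3 were above it, and the log2 fold change was 0.27 ± 0.11 (limma, adjusted p = 0.12). Irradiated replicate 4 was also the deepest of its group, at 10.16 M reads against 7.03 to 8.65 M in the others. Neat1 held 1.04 to 1.19 reads per exonic base in these mock libraries and 1.05 to 1.21 in the irradiated ones. The part of depth in these RPKM values was not tested. The Trp53-/- non-B libraries went from 109 and 112 RPKM to 83.9 and 98.4 RPKM (-0.28 ± 0.16, limma, adjusted p = 0.44). The genotype difference of 0.55 ± 0.20 in non-B cells did not pass the test (limma, adjusted p = 0.11), and none of the 7 RNAs did in this comparison, where 6.55% of genes were called. Without Trp53+/+ irradiated replicate 4 it was 0.67 (limma, adjusted p = 0.016). Irradiated Trp53+/+ B cells held 1.91-fold less Neat1 than non-B cells (log2 difference -0.94 ± 0.12, limma, adjusted p = 1.2e-06).

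Few paraspeckle proteins changed. Of 20 tested, 1 fell in Trp53+/+ B cells, Ahdc1 (log2 fold change -0.61), and in Trp53-/- B cells 1 rose and 1 fell, Ahdc1 again (-1.31). Of all genes, 24.7% and 24.3% were called in either direction. The list medians were 0.06 and 0.16. Among the genes most alike to Neat1 over the 24 libraries were Diap1, an actin-nucleating formin, and Pitpnm1, a phosphatidylinositol transfer protein (r = 0.959 and 0.956). Their log2 fold changes in Trp53-/- B cells were -0.53 and -0.82, which is no separate result, since the genes were picked by likeness to Neat1.

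Malat1 was among the most abundant RNAs, and its RPKM followed the depth of the library. It was at 161, 179.6, 213 and 175 RPKM in mock and 232, 288, 212 and 197 RPKM in irradiated Trp53+/+ B cells, with overlapping groups. The log2 fold change of 0.34 ± 0.11 passed the adjusted p (limma, 0.024) and not the fold threshold. It was 0.60 from replicates 1 and 2 alone, where it passed both, and 0.08 from replicates 3 and 4. In Trp53-/- B cells it was at 182.9 and 182.6 RPKM and then at 179 and 169.9 RPKM (-0.07 ± 0.16). Over all 24 libraries the log2 RPKM of Malat1 and the log2 depth had a Pearson r of -0.99, given as a description.

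In processing, a single copy of each set of duplicated reads had been kept, which bounds the number of reads a gene of given length can hold. Malat1 held 1.36 to 1.67 reads per exonic base in every library (CV 4.86%) while its RPKM ranged from 152 to 288 (CV 15.9%). The highest value of any gene in a library was 1.457 to 1.919 reads per base. The genes most alike to Malat1 were Rpph1 and Rmrp, the abundant RNAs of RNase P and RNase MRP, and Actb, cytoplasmic actin (r = 0.981, 0.979 and 0.97). The levels of Malat1 therefore cannot be told apart from the depth, in any of the comparisons. Neat1 held 0.321 to 1.21 reads per base, and the snoRNA hosts, Dleu2 and Kcnq1ot1 at most 1.06. Of 20 nuclear speckle proteins tested, none was called in the IR response of any group, where 0.442% to 24.7% of all genes were. The list medians ran from -0.09 to 0.18.

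**Figure D4:**
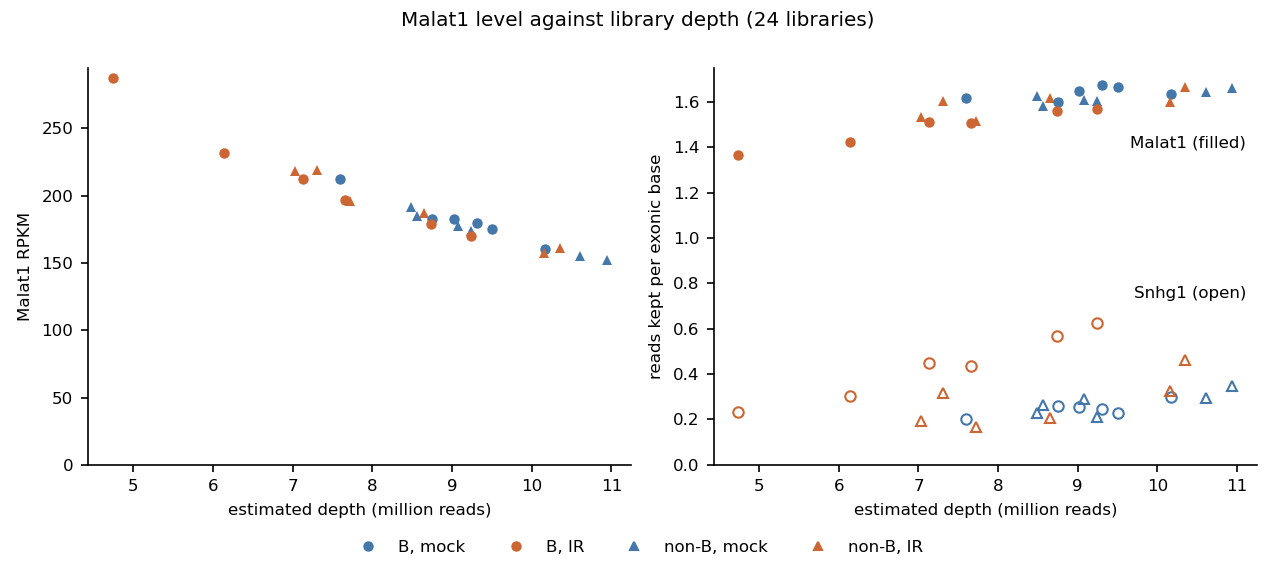
Left, Malat1 RPKM against estimated depth in M reads. Right, reads kept per exonic base for Malat1 (filled) and Snhg1 (open), in 24 libraries (circles, B; triangles, non-B; blue, mock; orange, IR). Malat1 RPKM falls from 288 at 4.74 M reads to 152 at 10.94 M reads, with 1.36 to 1.67 reads per base, whereas Snhg1 varies at each depth.

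Kcnq1ot1 was higher after IR in B cells, below the fold threshold. In Trp53+/+ B cells it went from 21.3, 21.6, 21.4 and 21.96 RPKM to 26.8, 28.6, 28.6 and 27.03 RPKM, groups that were tight and did not overlap (log2 fold change 0.36 ± 0.05, limma, adjusted p = 7.9e-05). In Trp53-/- B cells it went from 22.8 and 22.1 RPKM to 32.5 and 34.3 RPKM (0.56 ± 0.07, limma, adjusted p = 6.2e-05), and 0.58 or 0.60 without replicate 1 of the mock or irradiated group, where it was called. Its Trp53+/+ non-B libraries were at 14.96, 16.6, 19.4 and 17.8 RPKM in mock and 14.3, 14.7, 18.3 and 21.9 RPKM after IR, which overlapped. After IR its level was 1.61-fold higher in Trp53+/+ B than non-B cells, where 6 of the 7 RNAs tested differed (Snhg1, Gas5, Snhg12 and Kcnq1ot1 higher, Dleu2 and Neat1 lower in B cells, against 35.7% of all genes, 15.3% higher and 20.3% lower).

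Kcnq1, the potassium channel gene that Kcnq1ot1 crosses on the other strand, was at 0 to 0.373 RPKM in all libraries. Genes of the imprinted domain moved in both directions, with 4 of 12 tested higher and 2 lower in Trp53+/+ B cells (median log2 fold change 0.15). Of all genes, 12.5% were higher and 12.2% lower there. Osbpl5, an oxysterol-binding protein gene, fell by 1.65 and Trpm5, a cation channel gene, rose by 1.57 on the log2 scale, while Tnfrsf26, a decoy death receptor gene, changed by 1.22 in Trp53+/+ and -1.39 in Trp53-/- B cells (genotype difference 2.61, limma, called).

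Meg3 was at most 0.493 RPKM. In Trp53+/+ B cells it was at 0.043, 0.055, 0.058 and 0.077 RPKM in mock and 0.359, 0.493, 0.062 and 0.067 RPKM after IR. The 2 highest values came from the libraries with 36.5% and 47.3% of silent receptor genes above 0. Its Trp53+/+ non-B libraries held 0.047, 0.028, 0.087 and 0.119 RPKM in mock and 0.114, 0.052, 0.304 and 0.230 RPKM after IR, with the highest value again in the library of the highest share (51.3%). The differences did not pass an exact permutation test (two-sided p = 0.143 in each cell type, on log2(RPKM + 0.5)). The highest value in an unstressed library, 0.239 RPKM, was in Trp53-/- non-B cells. Of the 8 genes listed for its imprinted domain 3 were tested, and none was called in the IR response of any group. Of all genes, 0.442% to 24.7% were called in these responses.

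**Figure D5:**
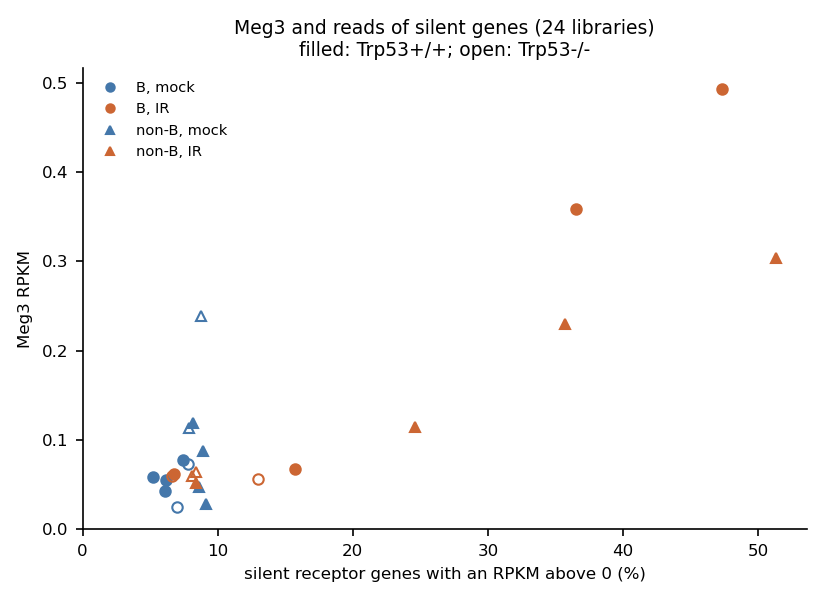
Meg3 RPKM against the share of 1412 silent receptor genes with an RPKM above 0, for 24 libraries (circles, B; triangles, non-B; blue, mock; orange, IR; filled, Trp53+/+; open, Trp53-/-). The 4 libraries with more than 30% of these genes above 0 hold 0.230 to 0.493 RPKM.

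Of 18 other lncRNAs tested, 3 rose and 2 fell in Trp53+/+ B cells, where 12.5% of all genes rose and 12.2% fell. Their median log2 fold change was 0.06. Pvt1, the neighbour of Myc and a known p53 target, rose most, from 7.54 to 8.34 RPKM in mock to 59.7 to 67.2 RPKM after IR. It was called as higher in Trp53-/- B cells too, with a log2 fold change of 1.41. The response of Pvt1 was higher in Trp53+/+ than in Trp53-/- B cells by 1.52 on the log2 scale. Mir17hg, host of the miR-17-92 cluster, rose by 0.78 in Trp53+/+ and 1.31 in Trp53-/- B cells, and Peg13, an imprinted RNA, fell by 0.95 and 0.93. For comparison, the highest log2 fold change among the 7 RNAs tested was 1.18, of Snhg1 in Trp53-/- B cells, against 2.92 for Pvt1 in Trp53+/+ B cells.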

How the data were processed

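RNA was measured in 24 libraries. The authors masked bases below a quality of 20, mapped reads to mm9 with TopHat2 2.0.8 (submitters' notes), kept 1 of each set of duplicates, counted with featureCounts 1.4.5, no strand option being named, and deposited RPKM values with 3 decimals. Depth was estimated from whole-read steps in low RPKM values and GENCODE M1 lengths (found for 91.1% of genes).

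Genes above 1 RPKM in at least 1 Trp53+/+ sample were fitted on log2(RPKM + 0.5) with limma 3.58.1 (R 4.3.3, mean-variance trend), per cell type for IR and genotype, and over all 24 samples between cell types. Calls needed a Benjamini-Hochberg adjusted p under 0.05 and a log2 fold change beyond 0.58. B cell data were simulated with a log2 fold change of 1.5 and an SD of 0.15. In these data, 200 of 200 changed genes and 4 others were called. Recovery of smaller changes, such as those of the 7 RNAs, was not tested. Single values had exact permutation tests.

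The RNAs and gene lists were chosen with earlier results of these data known. The text names, for each list, at most 4 genes called in Trp53+/+ cells with the highest absolute change, genes inside an RNA's locus and genes among the 3 genes most correlated with an RNA, of which 1 is not reported here. The study's count model was not used, since RPKM are not counts. Per the study's methods, RNA came from 4 Trp53+/+ and 2 Trp53-/- mice per condition, which matches the libraries per group. The labels do not tie a B library to the non-B library of the same mouse. Mock and irradiated Trp53+/+ non-B samples of the same replicate number had a correlation of deviations of 0.18 to 0.36. Mock replicates 1 and 4 were most alike to their own number, replicate 2 to number 1 and replicate 3 to number 4. Between irradiated Trp53+/+ B and non-B samples the correlation was -0.06 to 0.34, with replicate 2 alone most alike to another number. Whether the numbers stand for pairs cannot be told. Alternatives covered the pseudocount, filter, scaling, spread, block, silent genes and samples left out.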

Additional observations from a re-analysis of the deposited data

Results flagged for a closer look

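The response of Neat1 to IR in B cells differed between the genotypes by 0.73 on the log2 scale (Trp53+/+ minus Trp53-/-, limma, adjusted p = 0.025), since Neat1 fell in Trp53-/- B cells and was not called in Trp53+/+ B cells.

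Between Trp53+/+ B and non-B cells, the IR response of 5 RNAs differed with an adjusted p below the threshold. The log2 difference was 1.08 for Snhg1, 0.68 for Gas5 and 0.54 for Snhg12, all higher in B cells. It was -1.07 for Dleu2 and -0.55 for Neat1, with lower responses in B cells. Neat1 and Snhg12 were under the fold threshold.

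Of 32 groups of 4 libraries tested for a library far from the others (Dixon's test), 0 held one, where chance flags about 1 in 20.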

How the results depend on the processing

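Over the 12 comparisons, the alternatives listed above left 1651 of the single-RNA results on the same side of the thresholds. Another 20 became called and 9 lost their call, and no called value changed sign. Some values that were not called did change sign. The calls of Snhg1, Snhg12, Gas5 and Dleu2 in Trp53+/+ B cells held in all alternatives, at 0.81 to 1.23, 0.75 to 1.11, 0.62 to 0.83 and -0.80 to -0.74. The number of RNAs called in the other comparisons moved as follows, and the cause was not tested. Without a fold threshold it was 1 in place of 0 for IR in Trp53+/+ non-B cells, 2 in place of 0 between unstressed Trp53+/+ B and non-B cells, and 5 in place of 3 for the cell type difference. For the genotype difference in B cells (1, Neat1) it was 0 with the silent receptor level as a covariate and 0 to 1 leaving out 1 library. For the same difference in non-B cells (0) it was 1 with quantile normalization (Dleu2, 0.60) and 0 to 1 leaving out 1 library. Quantile normalization also gave 1 between unstressed Trp53+/+ B and non-B cells (Neat1, -0.59) and took Gas5 to 0.56 in the cell type difference. That difference counted 6 RNAs without the libraries over 10% of silent receptor genes, a setting that left 1 irradiated Trp53+/+ library of each cell type, and 3 to 5 leaving out 1 library, 5 without Trp53+/+ irradiated B replicate 1 or non-B replicate 4.

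With the replicate number as a block, 4 RNAs were called for IR in Trp53+/+ B cells, as before, and no other call of an RNA changed. In Trp53+/+ non-B cells the adjusted p of Dleu2 became 0.028 and that of Snhg12 0.052 (limma), both under the fold threshold. Crossing the numbers of irradiated Trp53-/- non-B samples, an alternative added after seeing the data, called 152 genes in place of 62 and 0 of the 7 RNAs. Counts over all genes moved most in non-B cells. For IR in Trp53+/+ mice they went from 1381 to 316 with the silent receptor covariate, 321 without the libraries over 10% and 918 without irradiated replicate 3, and in Trp53-/- mice from 62 to between 0 and 293. The genotype difference went from 918 to between 191 and 1415 in non-B and from 1656 to between 1060 and 1957 in B cells. Depth limits Meg3, Mir15a and Mir16-1, which rest on few reads, and the removal of duplicates limits Malat1. The part of this removal in the level of Neat1 in non-B cells was not tested. Gas5 held 1.03 and 1.06 reads per exonic base in the irradiated Trp53-/- B libraries. The part of the removal of duplicates in its genotype difference was not tested either.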
